A study of Mus musculus with 6 samples.

Results

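The genes described here are 29 genes of glutamate signalling, chosen by name from the 32285 genes of the count table: 4 AMPA, 5 kainate and 7 NMDA receptor subunits, 1 delta receptor subunit, 6 metabotropic receptors, 3 plasma membrane glutamate transporters, 1 vesicular transporter and 2 postsynaptic scaffold genes. The choice applied no cut on expression values, but was made with earlier results of these data known. All 29 genes were found in the table by gene identifier and passed the filter on low counts. They were measured by bulk RNA sequencing in retinas of wild-type C57BL/6J mouse pups at PN18, with 3 libraries from OIR-CIH and 3 from OIR-Norm animals. Every pup, the OIR-Norm controls included, had been held in 75% O2 between PN8 and PN13, the oxygen-induced retinopathy (OIR) model, which closes central capillaries and leaves ischemic retina after the return to room air. OIR-CIH pups then underwent chronic intermittent hypoxia (CIH) for 10 h a day in 266 cycles of 135 s, in which O2 dropped from 20.95% to 5%, whereas OIR-Norm pups received equal gas flow at constant O2. The comparison asks how CIH affects gene expression of the ischemic retina, and retinas without OIR were not analysed here. The methods name the same number of eyes as there are libraries, and each library is called a retina below. Transcripts of both sexes were nonetheless found in every library, which conflicts with a single pup as its source, so the spread is given as that between libraries. Total counts were between 26289905 and 38010151 per retina.

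Glutamate is the transmitter of photoreceptors, bipolar cells and retinal ganglion cells, and photoreceptors release it continuously in darkness. It is loaded into vesicles by vesicular transporters, acts on ion channels of the AMPA, kainate and NMDA classes and on G protein-coupled metabotropic receptors, and is cleared by transporters of the Slc1 family on neurons and Müller glia. Glutamate that accumulates in ischemic tissue overactivates NMDA receptors, a process known as excitotoxicity.

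None of the 29 genes passed the test for a difference between OIR-CIH and OIR-Norm at PN18. A call required a log2 fold change beyond 0.5 in size and an adjusted p below 0.05 by edgeR's quasi-likelihood test with Benjamini-Hochberg adjustment over all genes tested. By these thresholds 0 of 29 glutamate genes were called, against 63 of 20021 genes tested (0.315%), of which 43 (0.215%) were lower and 20 (0.0999%) higher in OIR-CIH. DESeq2, limma and limma-voom also called 0 of the 29, with backgrounds of 0.674%, 0.33% and 0.29% of all genes. At an unadjusted p under 0.05, edgeR found 2 of the 29 genes, which is 6.9%, where the share over all genes tested was 13.2%. These were Grin2b, which was lower in OIR-CIH, as 7.01% of all genes were at that p, and Grm7, which was higher, as were 6.2%.

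The direction was mixed, as 13 genes had a log2 fold change (OIR-CIH minus OIR-Norm) below 0 and 16 above it. The median over the 29 genes was 0.01, and that over all genes tested was -0.003. Values extended from -0.32 for Grin2b to 0.36 for Grm3, with adjusted p (edgeR) from 0.312 to 0.999. The 95% interval of the fold change lay entirely within 0.5 in either direction for 23 of 29 genes (79.3%). Among all 13670 genes at least as abundant as the lowest glutamate gene, this share was 79.2%. The 6 genes whose interval reached past 0.5 were Grin2b, Grin2c, Grin3b, Grm2, Grm3 and Grm7. For Grin2b the interval reached past 0.5 on the lower side and for the other 5 on the higher side, so differences of that size remained within the error there.

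**Figure D1:**
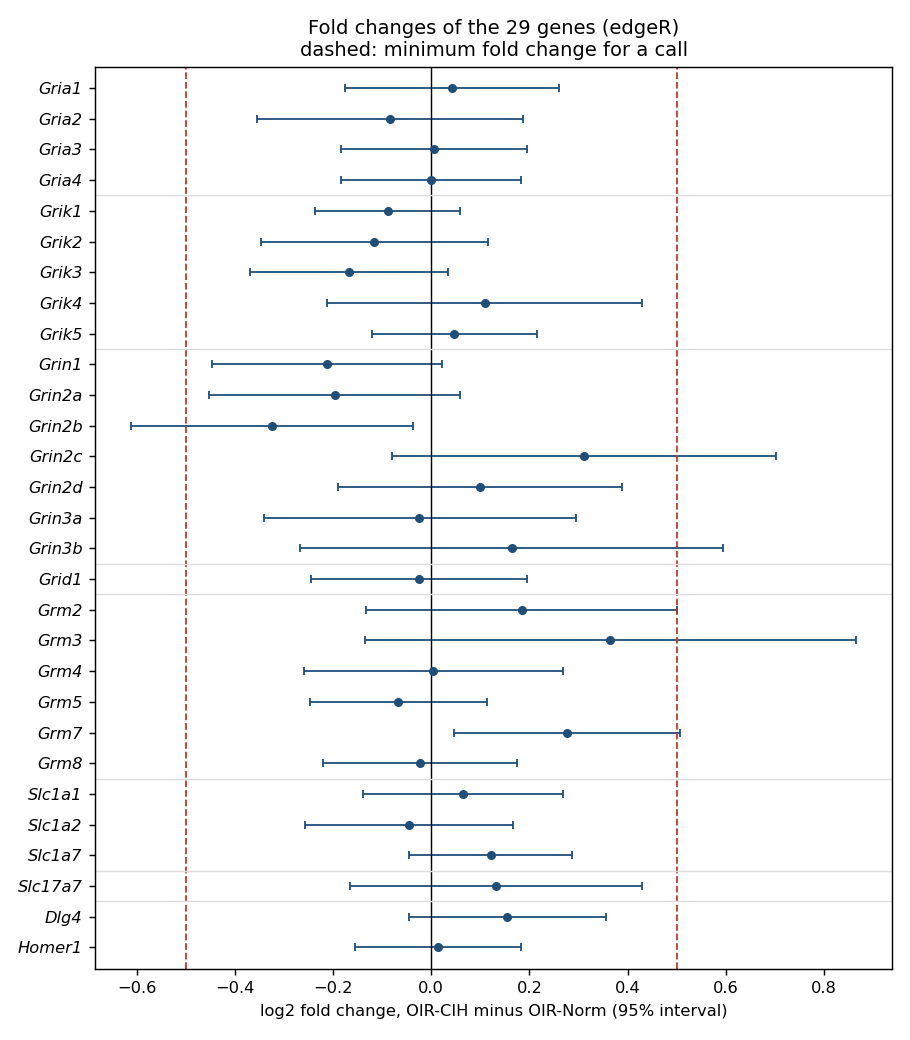
Log2 fold change of each of the 29 genes (OIR-CIH minus OIR-Norm, edgeR, points) with its 95% interval (bars), grouped by family; dashed lines mark the minimum of 0.5 for a call. All 29 points lie between -0.32 and 0.36, and the intervals of 6 genes reach past a dashed line.

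For 5 of the 29 genes (17.2%) the values of the 3 OIR-CIH retinas did not overlap those of the 3 OIR-Norm retinas, against 18.4% of all genes tested. Grm7, Grin2c and Dlg4 were higher in every OIR-CIH retina, as were 9.12% of all genes, and Grik3 and Grin2a were lower, as were 9.26%. Groups that do not overlap fix the p of an exact permutation test (two-sided) at 0.1, the smallest that 3 libraries per group can give. It was 0.1 for each of the 5 and adds nothing to the separation itself. The ratio of the highest to the lowest retina was small throughout, from 1.12 (Grm8 and Homer1) to 1.77 (Grin2b), with a median of 1.31. OIR-CIH replicate 1 held the lowest value of 10 genes and OIR-Norm replicate 1 that of 8, where these retinas were lowest for 19.8% and 14% of all genes. OIR-CIH replicate 3 and OIR-Norm replicate 2 each held the highest value of 9, where they were highest for 16.9% and 21.0% of all genes.

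**Figure D2:**
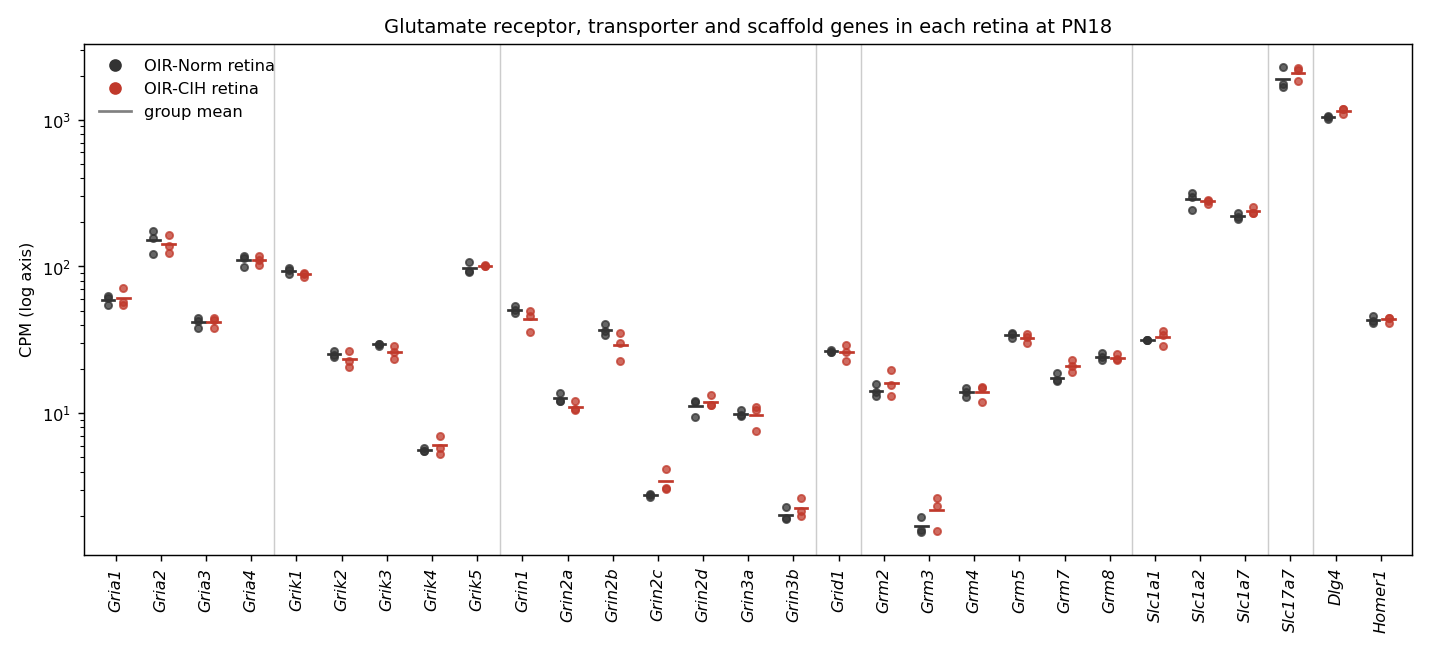
Level of each gene in CPM (counts scaled to one common library total, log axis) in the 3 OIR-Norm (dark) and 3 OIR-CIH (red) retinas, with a bar at the group mean; grey lines separate the families. The groups overlap for all genes except Grm7, Grin2c, Dlg4, Grik3 and Grin2a, and levels extend from 1.56 CPM for Grm3 to 2282 CPM for Slc17a7.

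The 250 bases before the transcript start are shown for Grm7, which had the lowest p of the 29 genes, for Homer1, whose fold change was near 0 (as were those of Gria3, Gria4 and Grm4), and for Slc7a11, a cystine and glutamate exchanger outside the 29 genes, the single called gene among those examined around them. They were chosen after these values were seen and are from RefSeq (GRCm38.p6), 5′ to 3′ on the gene's own strand, and 20 of the 29 genes had such a sequence in the table used. Capitals mark matches on either strand to TGATGCAA, the core bound by ATF4 with a C/EBP partner under amino acid shortage, and to TGACG, the core of the cAMP response element.
Grm7, chr6:110645262-110645511, plus strand: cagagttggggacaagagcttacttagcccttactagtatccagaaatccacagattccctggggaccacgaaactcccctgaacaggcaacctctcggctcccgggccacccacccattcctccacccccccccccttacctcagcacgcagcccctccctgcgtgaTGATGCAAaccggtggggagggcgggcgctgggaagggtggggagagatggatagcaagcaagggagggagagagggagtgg
Homer1, chr13:93303507-93303756, plus strand: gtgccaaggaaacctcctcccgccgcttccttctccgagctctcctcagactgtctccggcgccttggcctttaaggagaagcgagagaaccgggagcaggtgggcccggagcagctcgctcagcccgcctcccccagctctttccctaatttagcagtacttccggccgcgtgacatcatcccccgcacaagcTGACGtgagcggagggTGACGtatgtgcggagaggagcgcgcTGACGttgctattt
Slc7a11, chr3:50443614-50443863, minus strand: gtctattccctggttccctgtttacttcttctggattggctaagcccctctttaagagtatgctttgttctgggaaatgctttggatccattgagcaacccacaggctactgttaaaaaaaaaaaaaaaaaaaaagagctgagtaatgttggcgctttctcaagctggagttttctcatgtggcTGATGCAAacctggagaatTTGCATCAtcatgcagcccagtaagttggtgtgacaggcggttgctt

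The window of Slc7a11 held TGATGCAA 2 times, in opposite orientations, and that of Grm7 held it once. Grm7 and Homer1 had 2 RefSeq starts each, and the window before the most upstream one is shown. The 20 glutamate genes with a sequence had 26 windows. This motif was in 2 of the 26, both of them windows of Grm7, and so in 1 of the 20 genes. It was in 0.791% of all 32851 windows of that length. The windows of 1 gene are not independent, so these shares are not read as an excess. TGACG was found 3 times before Homer1 and also in windows of Dlg4, Grin1 and Grm8. That is 4 of the 26 windows, against 17.8% of all windows. The letters of the E-box CACGTG can overlap in part with those of TGACG. This E-box was found before Grin1 and Slc1a7, in 2 of the 26 windows, and in 6.02% of all windows. Slc7a11 and Grm7, which share TGATGCAA, had log2 fold changes of -0.86 and 0.28, and Grm7 was not called. Whether the motif bears on these values was not tested. These matches describe the letters of the windows only, and binding was not measured.

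AMPA receptors carry the fast excitatory current at most retinal synapses, and none of their 4 subunit genes was called. Gria2 encodes the subunit that makes the channel impermeable to calcium. It had 139, 164 and 124 CPM (counts scaled to one common library total after TMM normalisation) in OIR-CIH and 122, 175 and 156 in OIR-Norm, so that its lowest and its highest retina were both OIR-Norm. Gria4 was at 102, 118 and 111 CPM in OIR-CIH and 98.9, 118 and 114 in OIR-Norm, with equal group means of 110.2 ± 7.81 and 110.2 ± 9.98 CPM (SD, n = 3 retinas each). Gria1 had 54.6, 57.4 and 71.6 CPM against 54.3, 62.9 and 61.4, and OIR-CIH replicate 3 stood above all others. Gria3 was at 38.2, 43.2 and 44.4 CPM in OIR-CIH and 38.2, 44.3 and 42.8 in OIR-Norm. The log2 fold changes of the family were between -0.08 (Gria2, 95% interval -0.35 to 0.19) and 0.04 (Gria1, -0.18 to 0.26), and the 4 intervals all stayed within 0.5. The ratio of Gria1 to Gria2 was -1.22 ± 0.38 on the log2 scale in OIR-CIH and -1.33 ± 0.15 in OIR-Norm (SD, n = 3 each), and the groups overlapped.

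Kainate receptors carry the light-off signal from cones to OFF bipolar cells, a pathway in which Grik1 is a main subunit. Grik1 had 85.4, 88.8 and 90.4 CPM in OIR-CIH and 89.3, 97.4 and 94.7 in OIR-Norm, where only the lowest OIR-Norm retina reached into the OIR-CIH range. Grik3 was the kainate gene with non-overlapping groups: 23.5, 28.8 and 26.2 CPM in OIR-CIH and 29.7, 29.8 and 28.8 in OIR-Norm. The highest OIR-CIH and the lowest OIR-Norm retina of Grik3 were both at 28.8 CPM when rounded, so the groups touched without crossing. Its log2 fold change was -0.17 (standard error, SE, 0.09, edgeR adjusted p = 0.475). Grik5, the auxiliary high-affinity subunit, had 101 ± 0.862 CPM in OIR-CIH and 97.8 ± 9.27 in OIR-Norm (SD, n = 3 each). Grik2 and Grik4 had log2 fold changes of -0.12 and 0.11, with 95% intervals from -0.35 to 0.12 and from -0.21 to 0.43. Grik4, another high-affinity subunit, was the scarcest kainate gene, at 5.30 to 7.01 CPM over all 6 retinas.

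NMDA receptors open only when glutamate is bound and the membrane is depolarised, and admit calcium. Each contains the obligatory subunit encoded by Grin1 together with subunits of the Grin2 or Grin3 genes. Grin2b, whose subunit gives slowly decaying currents and predominates early in development, is at chr6:135713233-136173511 on the minus strand (GRCm38, GENCODE M21). It had 22.8, 35.1 and 30.2 CPM in OIR-CIH and 33.9, 40.4 and 36.3 in OIR-Norm, with means of 29.4 ± 6.19 and 36.8 ± 3.29 CPM (SD, n = 3 each). OIR-CIH replicate 1 was far below the other retinas, and OIR-CIH replicate 2 lay within the OIR-Norm range. The log2 fold change was -0.32 (SE 0.13, 95% interval -0.61 to -0.04), with an unadjusted p of 0.0295 and an adjusted p of 0.331 in edgeR. Without OIR-CIH replicate 1 the log2 fold change was -0.18 and the unadjusted p of this edgeR fit 0.136, and without OIR-Norm replicate 2 these were -0.25 and 0.0982.

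Grin1 itself had 35.6, 46.0 and 49.4 CPM in OIR-CIH and 53.5, 50.5 and 47.9 in OIR-Norm, again with the lowest value in OIR-CIH replicate 1. Its log2 fold change was -0.21 (95% interval -0.45 to 0.02, adjusted p = 0.424, edgeR), and -0.09 without OIR-CIH replicate 1. Grin2a, which replaces Grin2b at many maturing synapses, was at 10.5, 12.1 and 10.6 CPM in OIR-CIH and 12.2, 13.8 and 12.2 in OIR-Norm. Its groups did not overlap, although the nearest retinas were at 12.1 and 12.2 CPM, and the log2 fold change was -0.20 (SE 0.12, edgeR adjusted p = 0.506). The ratio of Grin2a to Grin2b shifts towards Grin2a as synapses mature. In CPM, not scaled to length, it was -1.12, -1.54 and -1.51 on the log2 scale in OIR-CIH. In OIR-Norm it was -1.48, -1.55 and -1.58. The groups overlapped, and OIR-CIH replicate 1 alone was apart from the other retinas.

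Summed CPM of retinal ganglion cell markers, the neurons in which several NMDA subunits are abundant, was likewise lowest in OIR-CIH replicate 1, at 854, against 950.1 to 1099 in the other retinas. Of those 8 markers 0 were called by edgeR, DESeq2, limma or limma-voom, and 0 had an unadjusted p under 0.05 in edgeR. In bulk RNA fewer cells of a type and less RNA per cell cannot be told apart, and the part of either in the low Grin1 and Grin2b values of that retina was not tested.

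Of the remaining 4 NMDA genes, 3 had a fold change above 0. Grin2c had 3.10, 4.16 and 3.04 CPM in OIR-CIH and 2.76, 2.7 and 2.83 in OIR-Norm, with every OIR-CIH retina above every OIR-Norm retina. Its log2 fold change of 0.31 (SE 0.18, 95% interval -0.08 to 0.70, edgeR adjusted p = 0.493) was 0.15 without OIR-CIH replicate 2, the retina with the highest level. Grin2d and Grin3b had log2 fold changes of 0.10 and 0.16, and Grin3a was at -0.02, all with intervals on both sides of 0. Of the exonic bases of Grin3b, 32.1% are also exonic in Tmem259 on the opposite strand, and Tmem259 had 3365 to 5232 counts per retina where Grin3b had as few as 51. Which strand of the counter's output the table holds is not given in the sources used here, so the level of Grin3b is uncertain. For Grin1 and Grin2d the share of exonic bases overlapped by an opposite-strand gene was 13.5% and 9.66%, and those partner genes had at most 38 and 14 counts per retina. Grid1, the delta receptor subunit, which binds glycine and D-serine and organises synapses more than it conducts, had 26 ± 3.32 CPM in OIR-CIH and 26.5 ± 0.314 in OIR-Norm (SD, n = 3 each).

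Metabotropic receptors tune release and excitability through G proteins. Grm7, a presynaptic receptor of low glutamate affinity that damps transmitter release, had the lowest p of the 29 genes. It was at 19.0, 21.0 and 23.2 CPM in OIR-CIH and 16.6, 16.9 and 18.8 in OIR-Norm, with means of 21.1 ± 2.09 and 17.4 ± 1.16 CPM (SD, n = 3 each). All OIR-CIH retinas were above all OIR-Norm retinas, with the nearest pair at 19.0 and 18.8 CPM. The log2 fold change was 0.28 (SE 0.11, 95% interval 0.05 to 0.51), with an unadjusted p of 0.0226 and an adjusted p of 0.312 in edgeR. When single retinas were left out, the log2 fold change of Grm7 was between 0.20 and 0.34, and the unadjusted p in edgeR was over 0.05 without OIR-CIH replicate 2 (0.0512), OIR-CIH replicate 3 (0.118) or OIR-Norm replicate 1 (0.0785).

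Grm3 had the largest fold change of the 29 genes and also the widest interval. It had 1.57, 2.32 and 2.65 CPM in OIR-CIH and 1.56, 1.61 and 1.95 in OIR-Norm, and its lowest OIR-CIH retina was level with the lowest OIR-Norm retina. The log2 fold change of 0.36 had an SE of 0.23 and a 95% interval from -0.14 to 0.87, at 40 counts in the retina with the fewest. Without OIR-CIH replicate 3 it was 0.19 and without OIR-CIH replicate 1 it was 0.54, with adjusted p of 0.814 and 0.582 (edgeR). Grm2, whose receptor like that of Grm3 inhibits adenylyl cyclase, had 15.6, 13.1 and 19.8 CPM in OIR-CIH and 13.0, 15.9 and 13.9 in OIR-Norm. Its log2 fold change of 0.18 became 0.005 when OIR-CIH replicate 3 was left out.

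The other 3 metabotropic genes had narrow intervals around 0. Grm5, which couples to phospholipase C, had 32.5 ± 2.10 and 34.1 ± 1.18 CPM, Grm4 had 13.9 ± 1.74 and 13.9 ± 0.945, and Grm8 had 23.9 ± 1.27 and 24.3 ± 1.33 in OIR-CIH and OIR-Norm (SD, n = 3 each). Their log2 fold changes were -0.07, 0.004 and -0.02, and none of the intervals went beyond 0.27 in either direction.

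The transporters that remove glutamate from the extracellular space overlapped between groups for all 3 genes. Slc1a2, the main forebrain uptake carrier, found in retina on cones and bipolar cells, had 286, 279.6 and 267 CPM in OIR-CIH and 297, 319 and 244 in OIR-Norm. The OIR-Norm retinas enclosed the whole OIR-CIH range. Slc1a7, a carrier with a large chloride conductance that is concentrated in photoreceptors and bipolar terminals, had 253, 232 and 233 CPM in OIR-CIH and 232, 212 and 217 in OIR-Norm. The log2 fold change was 0.12 (95% interval -0.05 to 0.29, adjusted p = 0.528, edgeR). Slc1a1, the neuronal carrier that also imports cysteine, was at 33.1 ± 3.80 and 31.7 ± 0.128 CPM (SD, n = 3 each). Opposite-strand transcript 4430402I18Rik covers 31.9% of its exonic bases but had 27 to 51 counts per retina, where Slc1a1 had at least 832.

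Slc17a7 encodes the vesicular transporter of photoreceptor and bipolar terminals and was the most abundant of the 29 genes. It had 2249, 1834 and 2169 CPM in OIR-CIH and 2282, 1744 and 1682 in OIR-Norm. OIR-Norm replicate 1 was thus the highest retina and the other 2 of that group the lowest, which left a log2 fold change of 0.13 with a 95% interval from -0.17 to 0.43. Without OIR-Norm replicate 1 it was 0.28. Summed rod markers were likewise highest in OIR-Norm replicate 1 and OIR-CIH replicate 1 (56503 and 56498 CPM) and lowest in OIR-Norm replicates 2 and 3 (43145 and 45623 CPM).

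Dlg4 encodes a scaffold that anchors NMDA receptors in the postsynaptic density and in the retina also lies in photoreceptor terminals. It had 1189, 1175 and 1103 CPM in OIR-CIH and 1059.8, 1046 and 1008 in OIR-Norm. Every OIR-CIH retina was above every OIR-Norm retina, but the difference was small: a log2 fold change of 0.16 (SE 0.09, 95% interval -0.05 to 0.36, edgeR adjusted p = 0.504). Homer1, which links metabotropic receptors to intracellular calcium stores and has a short activity-induced isoform, was at 43.7 ± 1.89 CPM in OIR-CIH and 43.2 ± 2.53 in OIR-Norm (SD, n = 3 each). Counts per gene do not separate the isoforms of Homer1.

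Levels of different genes were compared per length, as CPM per kb of annotated exons averaged over the 6 retinas. Slc17a7 was highest, at 369.7 ± 50.1 CPM per kb (SD, n = 6), followed by Dlg4 at 82.8 and Slc1a7 at 68.4. Slc1a2 (21.5), Grik5 (19.2), Gria4 (17.5) and Grik1 (13.5) came next, so that 7 genes were at 10 CPM per kb or more. Gria1 (9.99) and Gria2 (9.44) followed, and Grin1, at 4.86, was the highest NMDA gene. At the other end, 6 genes were under 1 CPM per kb: Grik4, Grin3a, Grin2a, Grin3b, Grm3 and, lowest, Grin2c at 0.615. The highest and the lowest gene differed 601-fold. Of the 28 pairs of neighbours in this order, 21 overlapped in the values of their 6 retinas, so much of the order below Slc1a2 is not resolved. The groups gave close values on this scale too, with Slc17a7 at 387 ± 40.8 CPM per kb in OIR-CIH and 353 ± 61.3 in OIR-Norm (SD, n = 3 each).

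**Figure D3:**
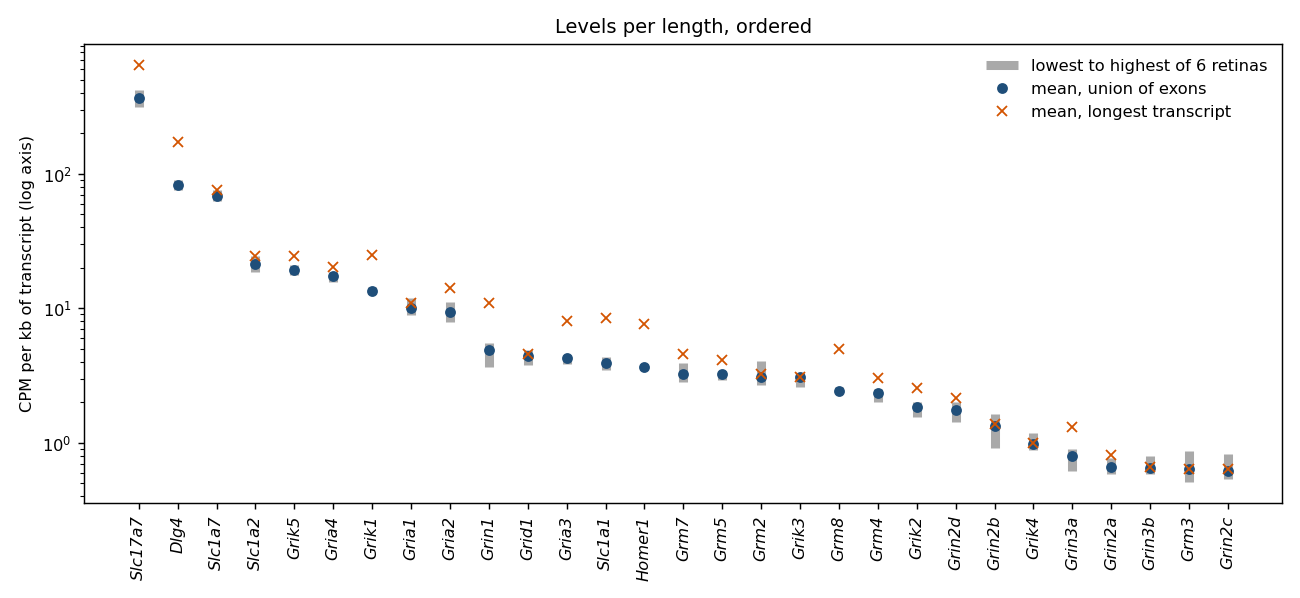
Levels of the 29 genes in CPM per kb (log axis), ordered by the mean over the 6 retinas (blue points), with grey bars from the lowest to the highest retina and crosses for the mean by the longest annotated transcript. Slc17a7 leads at 369.7 CPM per kb and Grin2c is last at 0.615; no gene moves by more than 5 places with the other length.

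Within families, shares of the summed CPM per kb of annotated exons gave the make-up of the subunit transcripts. Gria4 made up 42.6 ± 0.735% of AMPA subunit transcript in OIR-CIH and 42.4 ± 0.691% in OIR-Norm (SD, n = 3 each). Grik5 and Grik1 together formed most of the kainate family, at 51.0 ± 0.890% and 34.2 ± 0.384% in OIR-CIH and 48.5 ± 1.62% and 35.8 ± 1.09% in OIR-Norm. The order of these 2 genes depended on the length used: by the longest annotated transcript Grik5 was highest in the 3 OIR-CIH retinas and Grik1 in the 3 OIR-Norm retinas, at means of 44.9% and 43.5% in OIR-CIH and 42.4% and 45.4% in OIR-Norm. Among NMDA genes Grin1 was at 42.1%, 43.5% and 45.5% in OIR-CIH and 49.0%, 45.2% and 47.3% in OIR-Norm, and only OIR-CIH replicate 3 reached the OIR-Norm range. By the longest transcript its share was 59.6 ± 1.64% in OIR-CIH and 62.9 ± 1.76% in OIR-Norm (SD, n = 3 each). In the metabotropic family Grm7 was at 22.7%, 23.7% and 22.9% in OIR-CIH and 19.9%, 19.9% and 21.2% in OIR-Norm. Grm5 showed the reverse, at 20.7%, 21.3% and 19.5% against 23.7%, 22.2% and 22.8%. With the longest transcript Grm8, at 23.6% in OIR-CIH and 25.2% in OIR-Norm, was above Grm7 in 4 of 6 retinas. The shares of Grm7 and of Grm5 did not overlap between groups with either length, but shares of 1 family are bound to each other and were not tested.

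**Figure D4:**
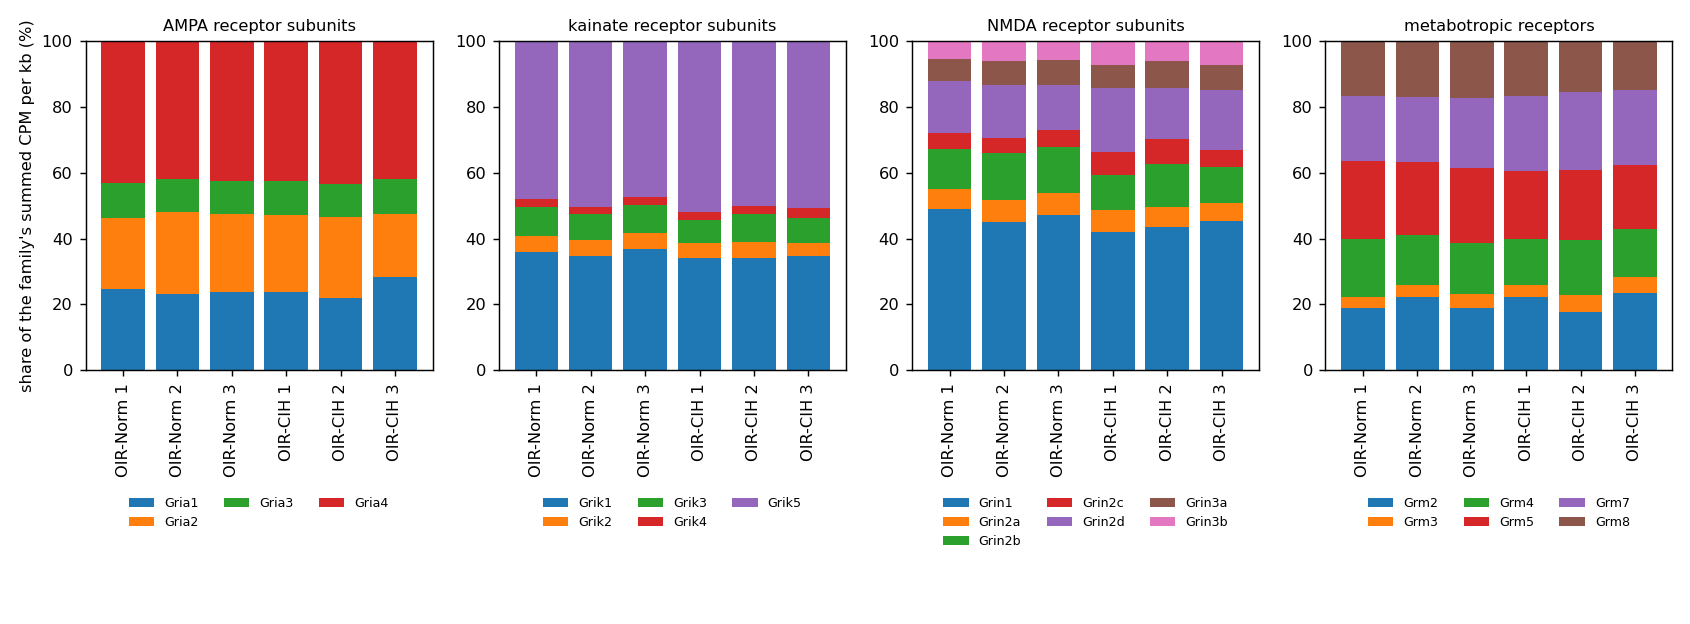
Share of each gene in the summed CPM per kb of its family (%, stacked bars, length as the union of annotated exons) in each of the 3 OIR-Norm and 3 OIR-CIH retinas. Gria4, Grik5 and Grin1 are the widest bands of the AMPA, kainate and NMDA families in all 6 retinas with the exon lengths plotted (by the longest transcript Grik1 is wider than Grik5 in 3 of them), and Grm7 is at 19.9% to 21.2% in OIR-Norm and 22.7% to 23.7% in OIR-CIH.

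Around these genes, 65 further genes of glutamate signalling were examined in 5 lists. In edgeR 8 of the 65 (12.3%) had an unadjusted p under 0.05, against 13.2% of all genes tested. The groups did not overlap for 9 (13.8%), against 18.4% of all genes tested. Of the 65 genes 1 was called, where 63 of 20021 genes tested (0.315%) were. This was Slc7a11, whose upstream sequence with paired TGATGCAA matches is shown above, and which encodes the exchanger that exports glutamate in return for cystine, the precursor of glutathione. Slc7a11 (chr3:49892526-50443614, minus strand, GRCm38, GENCODE M21) had 7.89, 8.88 and 9.98 CPM in OIR-CIH and 17.2, 18.6 and 13.0 in OIR-Norm, so that every OIR-CIH retina was below every OIR-Norm retina. It was lower in OIR-CIH by a log2 fold change of -0.86 (SE 0.15, 95% interval -1.19 to -0.54, edgeR adjusted p = 0.0233), with means of 8.91 ± 1.05 and 16.3 ± 2.92 CPM (SD, n = 3 each). The call was lost in 4 of 6 fits that left out a retina, namely OIR-CIH replicate 1, OIR-CIH replicate 2, OIR-Norm replicate 1 or OIR-Norm replicate 2. In these 6 fits the log2 fold change was between -1.003 and -0.76, and the adjusted p (edgeR) between 0.00606 and 0.168. Slc3a2, the heavy chain that pairs with it and with other amino acid carriers, was at 165 ± 12 CPM in OIR-CIH and 142 ± 17.8 in OIR-Norm (adjusted p = 0.359, edgeR).

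The other 12 genes of glutamate metabolism and cystine exchange were not called, among them Glul, the glutamine synthetase of Müller glia, at a log2 fold change of 0.15 (95% interval -0.11 to 0.41). Of 9 other glutamate receptor and transporter genes, 0 were called by edgeR, DESeq2, limma or limma-voom. In edgeR 1 (11.1%) had an unadjusted p under 0.05, against 13.2% of all genes tested. That gene was Slc17a8, the vesicular transporter of glutamatergic amacrine cells, at 18.4, 15.8 and 17.6 CPM in OIR-CIH and 22, 22.9 and 23.6 in OIR-Norm. The log2 fold change was -0.40 (SE 0.10), with an adjusted p of 0.142 in edgeR. In DESeq2 the adjusted p of Slc17a8 was 0.0272, but the fold change was under the minimum of 0.5. Slc1a3, the Müller glial uptake carrier and thus the main route of glutamate clearance in the retina, had 309.8 ± 13.8 CPM in OIR-CIH and 299 ± 1.80 in OIR-Norm (SD, n = 3 each). Slc17a6, the vesicular transporter of retinal ganglion cells, and Slc1a6 had log2 fold changes of -0.11 and 0.33, and neither was called.

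Auxiliary subunits govern the trafficking and gating of AMPA and kainate receptors. Of 14 such genes, 12 (85.7%) had a log2 fold change above 0, with a median of 0.11, and 0 were called by any of the 4 tools. Above 0 were 49.5% of all genes tested, with a median of -0.003, and 52.9% of genes at least as abundant as the lowest glutamate gene, with a median of 0.012. The groups did not overlap for 1 of the 14 (7.14%), against 18.4% of all genes tested. OIR-CIH replicate 3 held the highest value of several, such as Cacng4 (129.6 CPM, others 95.4 to 107), but not of Cacng8. The 2 genes (14.3%) with an unadjusted p under 0.05 in edgeR were Gsg1l and Neto2, against 13.2% of all genes tested. Their log2 fold changes were 0.32 and 0.27, and 0.24 and 0.22 without OIR-CIH replicate 3. Gsg1l, a suppressor of AMPA receptor currents, had 21.3, 24.0 and 26.3 CPM in OIR-CIH and 18.5 to 20 in OIR-Norm. The groups of Gsg1l did not overlap, and its adjusted p was 0.252 in edgeR. Among 16 other postsynaptic scaffold genes, 0 were called by any of the 4 tools and 0 had an unadjusted p under 0.05, with log2 fold changes from -0.18 (Homer2) to 0.21 (Grip2).

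ON bipolar cells read glutamate through the metabotropic receptor Grm6, which closes the Trpm1 channel in darkness. Of the 13 genes of this cascade 0 were called by any of the 4 tools. In edgeR 3 (23.1%) had an unadjusted p under 0.05, against 13.2% of all genes tested. Gng13, a G protein gamma subunit, was at 13.8, 13.5 and 14.8 CPM in OIR-CIH and 9.61, 9.93 and 12 in OIR-Norm, a log2 fold change of 0.42 (SE 0.12, edgeR adjusted p = 0.216). Trpm1 was at 254, 270.3 and 249.9 CPM in OIR-CIH and 286, 360.1 and 288 in OIR-Norm, and its log2 fold change of -0.27 was between -0.34 and -0.16 when single retinas were left out. Grm6 had 169, 166 and 158 CPM in OIR-CIH and 129, 217 and 132 in OIR-Norm. OIR-Norm replicate 2 was the highest for both Trpm1 and Grm6, and the fold change of Grm6 (0.05) turned on that retina. Without it the log2 fold change was 0.33, with an unadjusted p of 0.00117 and an adjusted p of 0.187 in edgeR, and without OIR-Norm replicate 1 or 3 it was -0.089 or -0.075.

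**Figure D5:**
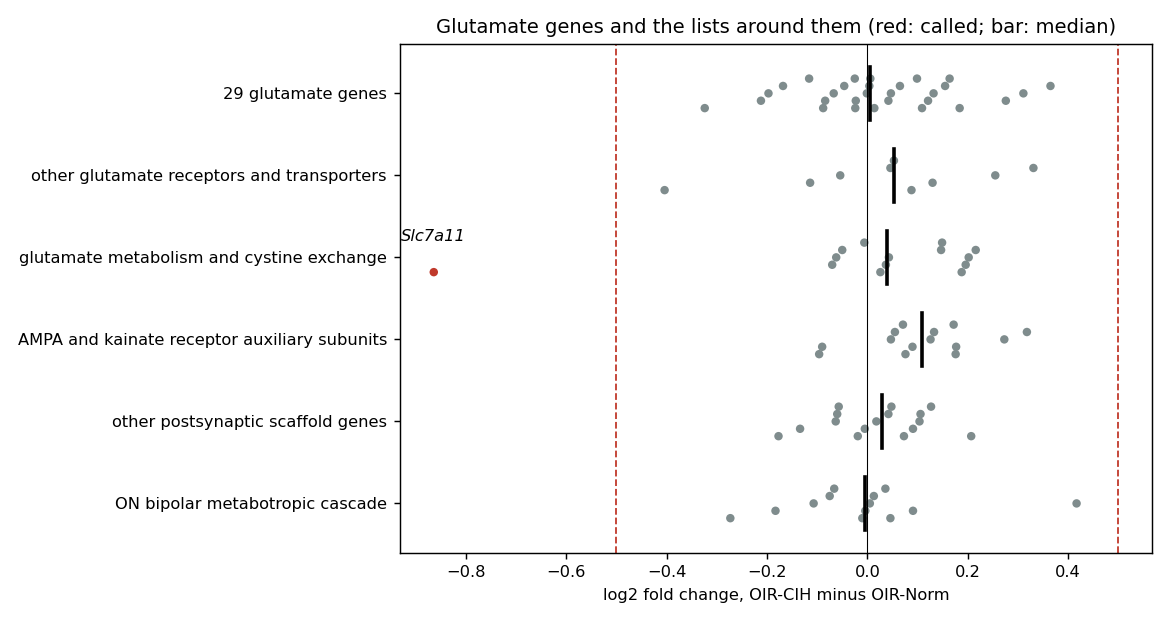
Log2 fold changes (OIR-CIH minus OIR-Norm, edgeR) of the 29 glutamate genes and of the 5 lists around them, with a black bar at each median and dashed lines at 0.5 in either direction. Slc7a11, at -0.86, is the only called gene, and all other points lie between the dashed lines.

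Markers of other cell types were checked in the same retinas. Markers of rods, cones, bipolar, amacrine, horizontal and ganglion cells and of Müller glia were detected in all 6 retinas. Of these 44 markers 0 were called by any of the 4 tools. In edgeR 7 of the 44 had an unadjusted p under 0.05, as did 13.2% of all genes tested. Amacrine and horizontal cell markers summed to 626 to 785 CPM in OIR-CIH and 583 to 619 CPM in OIR-Norm, without overlap. Of these 10 markers 8 had a log2 fold change above 0 and 2 below it, with a median of 0.19. Above 0 were 49.5% of all genes tested. Sums of the other neuron and Müller glia lists overlapped between groups. The part of cell make-up in the values of the glutamate genes was not tested. The markers called by edgeR were 3 of 5 genes of reactive glia, all lower in OIR-CIH (4 were called by DESeq2, 3 by limma and 2 by limma-voom): Gfap, Serpina3n and Timp1, at log2 fold changes of -1.15, -1.37 and -1.51 with adjusted p of 0.000107, 0.00011 and 0.0233 in edgeR. Microglial markers summed to 47.3 to 58.9 CPM in OIR-CIH and 58.7 to 69.6 CPM in OIR-Norm, with 0 of 6 called by edgeR and 1 by DESeq2. At an unadjusted p under 0.05 in edgeR, 2 of these 6 were lower in OIR-CIH, as were 7.01% of all genes tested. Of the 6 log2 fold changes 5 were below 0 and 1 above it. Endothelial markers summed to 195 to 223 CPM in OIR-CIH and 195 to 246 CPM in OIR-Norm, with 0 of 5 called. Lens transcripts summed to 462 CPM in OIR-Norm replicate 2 and to between 12.1 and 77.7 CPM in the other retinas. Of 5 lens markers 0 were called, and 3 were lower in OIR-CIH at that p. Pigment epithelium markers summed to 751 to 938 CPM in OIR-CIH and 556 to 768 CPM in OIR-Norm, with 0 of 6 called by any of the 4 tools. At an unadjusted p under 0.05 in edgeR, 4 of them were higher in OIR-CIH and 1, Pmel, lower. Over all genes tested 6.2% were higher and 7.01% lower at that p. Most of this sum was Rlbp1, which is also a Müller glia marker, and without it the sums were 258 to 382 CPM in OIR-CIH and 167 to 331 CPM in OIR-Norm. No defining marker of either tissue was at 0 in a retina, and the part of these tissues in the values of the glutamate genes was not tested.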

How the data were processed

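Retinal RNA (250 ng) was made into poly(A)-selected, strand-specific libraries. The authors aligned reads with STAR (2.7.9a per the labels) and deposited the resulting gene-level raw counts, not normalized, for the 6 retinas. The labels name GRCm38 and the paper's text Ensembl 105, and which strand column was kept is not given in the sources used here. Symbols, coordinates and exon lengths came from GENCODE M21 (GRCm38) by gene identifier (32158 of 32285 matched).

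Here, libraries were normalised by TMM (trimmed mean of M-values) and the 20021 genes reaching 10 counts in total were tested with edgeR 4.0.16 (R 4.3.3, quasi-likelihood), with Benjamini-Hochberg adjustment. CPM is the count scaled to one common library total. Intervals are 95% intervals of the fitted fold change. Shares, ratios and sums were not tested. Totals of 26289905 to 38010151 gave each of the 29 genes at least 40 counts per retina.

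The 29 genes and all lists were chosen with earlier results of these data known. Named genes are the 29 genes and, of each list, called genes, the 2 with the lowest p and Slc1a3, Grm6, Slc17a6, Glul and Slc7a11; of markers, those called and up to 2 per list. Tmem259 and 4430402I18Rik were named after their values were seen. Alternatives were DESeq2 1.42.0, its size factors, limma 3.58.1 on log2(CPM + 0.5), limma-voom, other count filters, a replicate block, no minimum fold change, each retina left out and, added after seeing the data, the longest transcript as length. All replicate pairs differed by more than sampling noise. Nothing states that libraries came from separate animals, so p-values measure the spread between libraries, which may be technical. The script was tested on simulated data with a common spread for all genes and planted changes beyond the minimum fold change. Smaller changes and a spread particular to each gene were not simulated.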

Additional observations from a re-analysis of the deposited data

How the results depend on the processing

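The count of 0 called among the 29 glutamate genes held in all 14 alternatives, and 1 to 2 of them had an unadjusted p under 0.05 when single retinas were left out (1 without OIR-Norm replicate 2) and 2 to 3 otherwise. Over all genes, 63 calls became 213 (153 lower, 60 higher) with every gene of at least 1 count, 135 (101 lower, 34 higher) with DESeq2, and 84 (52 lower, 32 higher) with the replicate block. Same-numbered retinas correlated at 0.162, 0.143 and -0.238 in their deviations from the group means, so the numbers were not taken to pair the retinas, and the block changed no call among the 29 genes. Leaving out single retinas gave 35 to 104 calls (35, with 24 lower and 11 higher, without OIR-CIH replicate 1, 104, with 88 lower, without OIR-Norm replicate 3, and 33 higher without OIR-Norm replicate 1), and 0 to 1 in the list with Slc7a11. The cause of these shifts was not tested.

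Signs were stable for 15 of the 29 genes and changed in some fit for 14, in no case reaching past 0.117 after the change. Gria4, at -0.001 in the test reported, was 0.0 with DESeq2's size factors and slightly above or at 0 with every gene of at least 1 count (0.002), DESeq2 (0.0), limma (0.001), limma-voom (0.001) and the block (0.0), and Grm4 was -0.001 with edgeR's own filter, -0.003 with limma and -0.001 with the block. With single retinas left out, log2 fold changes were -0.091 to 0.114 for Gria1, -0.22 to 0.032 for Gria2, -0.06 to 0.065 for Gria3, -0.078 to 0.049 for Gria4, -0.021 to 0.189 for Grik4, -0.002 to 0.127 for Grik5, -0.01 to 0.167 for Grin2d and -0.12 to 0.117 for Grin3a. They were -0.124 to 0.065 for Grid1, -0.054 to 0.099 for Grm4, -0.072 to 0.02 for Grm8, -0.004 to 0.154 for Slc1a1, -0.15 to 0.037 for Slc1a2, -0.018 to 0.062 for Homer1 and -0.089 to 0.332 for Grm6. By the longest transcript the fold between the highest and the lowest gene was 1022 in place of 601. Depth limits the low genes most: Grm3, Grin3b and Grin2c had as few as 40, 51 and 77 counts in a retina.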
